A study of Mus musculus with 6 samples.

Results

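The 10 genes described here are ATF4, several of its known target genes, and enzymes that make serine and pass on its carbon. They are Atf4, Ddit3, Atf3, Asns, Trib3, Sesn2, Phgdh, Psat1, Shmt2 and Mthfd2, taken by symbol from the 55401 genes of the deposited table. Each symbol matched a row, and where a symbol occurred more than once, as for Ddit3, the row with the highest mean count was used. RNA was sequenced from mouse cells that are labelled bone marrow stromal/stem cells and were grown in DMEM with 10% serum. The groups were WT and Nrf2 knockout, with 3 libraries each, and no treatment is given for either. No source used here states the knockout allele, the strain, or the age and number of animals. Nrf2 is the transcription factor encoded by Nfe2l2.

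ATF4 is a transcription factor of the integrated stress response. Kinases that sense amino acid shortage, unfolded protein, heme shortage or double-stranded RNA phosphorylate the initiation factor eIF2, which slows most translation but lets Atf4 mRNA be translated more. ATF4 protein is thus set largely by translation and protein turnover, so the level of Atf4 mRNA need not follow its activity. It switches on genes for amino acid uptake, for making asparagine, serine and proline, and for loading tRNAs. In human cancer cells NRF2 has been described to raise serine synthesis genes through ATF4.

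The libraries held 18381114 to 21323839 counts each. All levels below are CPM, counts scaled to library size after TMM correction for differences in RNA composition (counts per 1e+06), unless they are called FPKM. Log2 fold changes are knockout over WT from edgeR's quasi-likelihood test on the counts, and a gene is said to rise or fall only at an adjusted p under 0.05 over all 13184 tested genes. Nfe2l2 itself stood at 197, 163 and 159 CPM in WT replicates 1, 2 and 3 and at 5.85, 7.21 and 5.92 CPM in knockout, so it matched the labels in 6 of 6 libraries. Cell type markers differed between and within the groups. The 12 stromal markers, among them Col1a1, Fn1 and Pdgfrb, came to 6089, 17388 and 26025 CPM in total in WT replicates 1, 2 and 3 but to 312 to 363 CPM in knockout. All 12 passed as lower, against 18.7% of all tested genes. Pdgfra, Thy1 and Tagln reached the count filter in WT alone, so their calls follow in part from how they came to be tested. The 12 macrophage markers, among them Lyz2, Csf1r and Adgre1, summed to 19294 to 26285 CPM in WT and 20780 to 22639 CPM in knockout. Lyz2 made up most of that sum and did not pass (log2 fold change -0.30, edgeR adjusted p = 0.16). Of the 12, however, 5 rose (41.7%, against 14.1% of all tested genes) and 0 fell, with a median log2 fold change of 0.51. Those that rose were Mrc1 (5.6-fold), Fcgr1 (2.03-fold), Adgre1 (1.54-fold), Cd14 (1.52-fold) and Ptprc (1.46-fold). Defining stromal transcripts were thus scarce in the knockout libraries, and WT replicate 1 had the fewest among WT. Of the 12 stromal markers 2 stayed under 1 CPM in every knockout library. The 7 neutrophil markers summed to 18.7 to 98.0 CPM in WT and 273 to 312 CPM in knockout. Proliferation markers rose in 7 of 8 cases (87.5%, against 14.1%), with sums of 919 to 1143 CPM in WT and 1824 to 1923 CPM in knockout. Of the 5 osteoblast markers 2 were tested and fell, though Ibsp of these reached the count filter in WT alone. Of the 5 endothelial markers 1 of 3 tested rose, and the 5 lymphocyte markers stayed under 1 CPM in every library. In bulk RNA, fewer cells of a type and less RNA per cell cannot be told apart.

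Of the 10 genes, 5 fell in the knockout and 1 rose. Phgdh, Asns, Trib3, Psat1 and Sesn2 fell, by 14.5-fold to 1.56-fold, Ddit3 rose 1.46-fold, and Atf4, Atf3, Shmt2 and Mthfd2 did not pass the test. Across all tested genes 18.7% fell and 14.1% rose by the same rule. The 10 genes all passed the filter on low counts, in both genotypes. Their median log2 fold change was -0.74, against -0.01 for all tested genes. CPM ranges of the genotypes did not overlap for 8 of the 10, where 50.9% of all tested genes had ranges that did not overlap. WT replicate 1, the WT library with the fewest stromal transcripts, weighed heavily on these counts, as it did on those over all tested genes. Without it 7 of the 10 fell and 2 rose, and without WT replicate 2 or 3, or any 1 knockout library, 2 to 4 fell and 1 rose. Over all tested genes 3713 fell and 3188 rose without WT replicate 1, against 2468 and 1865 with all libraries. Without any other 1 library 1616 to 2134 of all tested genes fell and 875 to 1520 rose. Neither labels nor table headers say whether libraries of a genotype came from separate animals or cultures, and the 3 knockout columns share a code that may mark a single source. The p-values therefore reflect only how far these libraries vary, and that variation may be technical.

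**Figure D1:**
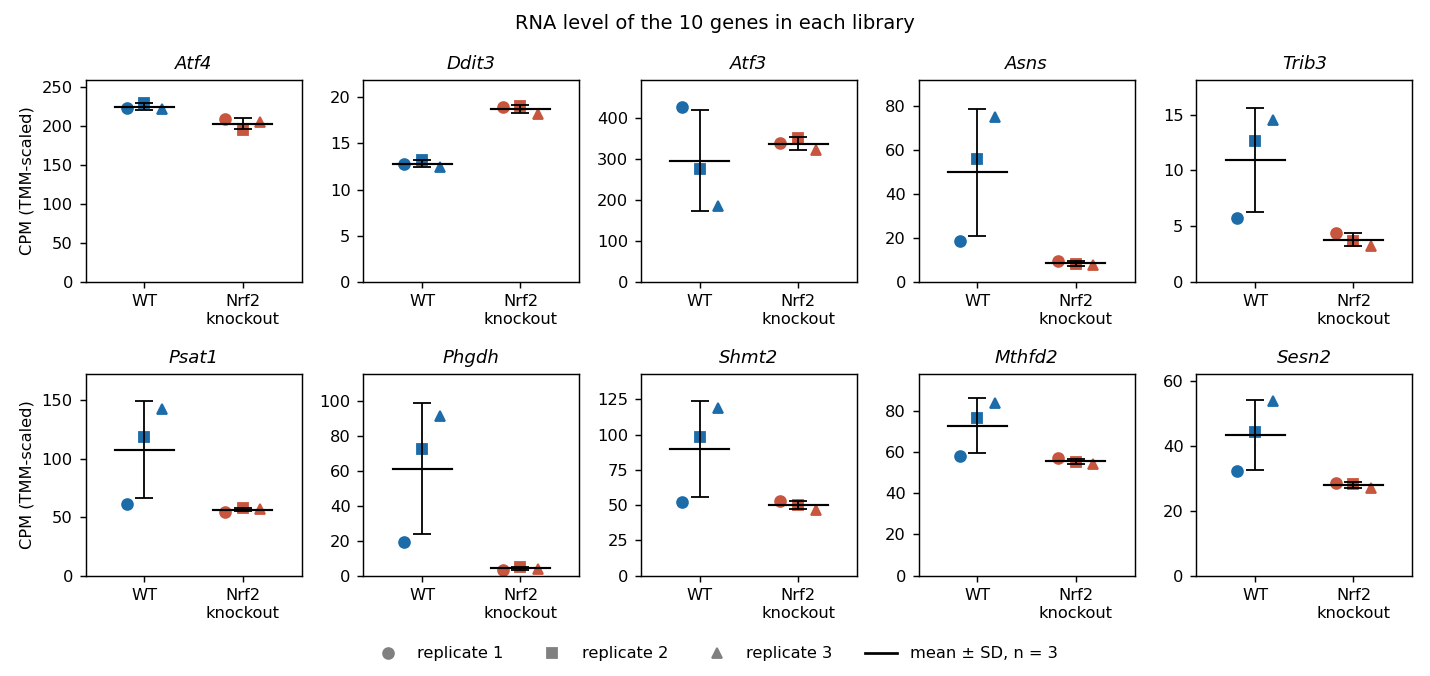
TMM-scaled CPM of each of the 10 genes in the 3 WT libraries (blue) and the 3 Nrf2 knockout libraries (red), on linear axes from 0. Marker shapes give the replicate number, and black lines give the mean ± SD (n = 3). The knockout libraries lie close together for every gene, while WT replicates 1, 2 and 3 spread widely for Asns (18.4, 56 and 74.8 CPM) and Phgdh (19.4, 72.7 and 91.5 CPM).

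The mRNA of ATF4 itself did not pass the test. Atf4 (ENSMUSG00000042406) lies on chromosome 15 from 80255184 to 80257541 on the plus strand (mm10). It stood at 224, 230.3 and 222 CPM in WT and 209.8, 195 and 206 CPM in knockout. The 3 knockout values lay just below the 3 WT values. Means of 225 ± 4.34 and 203 ± 7.74 CPM (SD, n = 3 each) gave a log2 fold change of -0.15 (SE 0.07; edgeR adjusted p = 0.16), with a 95% interval from -0.32 to 0.02. ATF4 protein was not measured. In the deposited FPKM, which divides by length, Atf4 was second of the 10 genes in both genotypes, at 97.2 ± 5.77 in WT and 84.8 ± 3.81 in knockout (SD, n = 3).

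Ddit3, which encodes CHOP, a partner and target of ATF4 that acts in prolonged stress, was the single gene of the 10 that rose. It stood at 12.8, 13.2 and 12.4 CPM in WT and 18.9, 19.1 and 18.2 CPM in knockout. All 3 knockout libraries lay above all 3 WT libraries, and the spread within each genotype was small. Knockout over WT, this was 0.55 on the log2 scale (SE 0.09; edgeR adjusted p = 0.0043), and the call held under 17 of 17 alternatives, with values from 0.45 to 0.58. Ddit3 lies on chromosome 10 from 127290774 to 127296288 on the plus strand, and its exons overlap those of the methionyl-tRNA synthetase gene (Mars1 in the table) on the other strand. Since no source used here states strand use in counting, reads in the overlap cannot be assigned to either gene. Mars1 did not pass, with a log2 fold change of -0.13 (SE 0.13; edgeR adjusted p = 0.47).

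Atf3, a stress-induced repressor and ATF4 target, showed no call and a wide WT spread. It stood at 429, 277 and 185 CPM in WT replicates 1, 2 and 3 and at 339, 353 and 323 CPM in knockout. The knockout values sat within the WT range. WT replicate 1 was the highest WT library here, whereas it was the lowest for the 7 genes other than Atf4, Ddit3 and Atf3. On the log2 scale the difference was 0.19 (SE 0.28; edgeR adjusted p = 0.63; 95% interval -0.46 to 0.84). Without WT replicate 1 it was 0.56 and passed (edgeR adjusted p = 0.009), and without WT replicate 3 it was -0.06. By FPKM, Atf3 was the highest of the 10 genes in both genotypes, at 138 ± 49.1 in WT and 154 ± 5.3 in knockout, though its WT libraries overlapped those of Atf4.

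**Figure D2:**
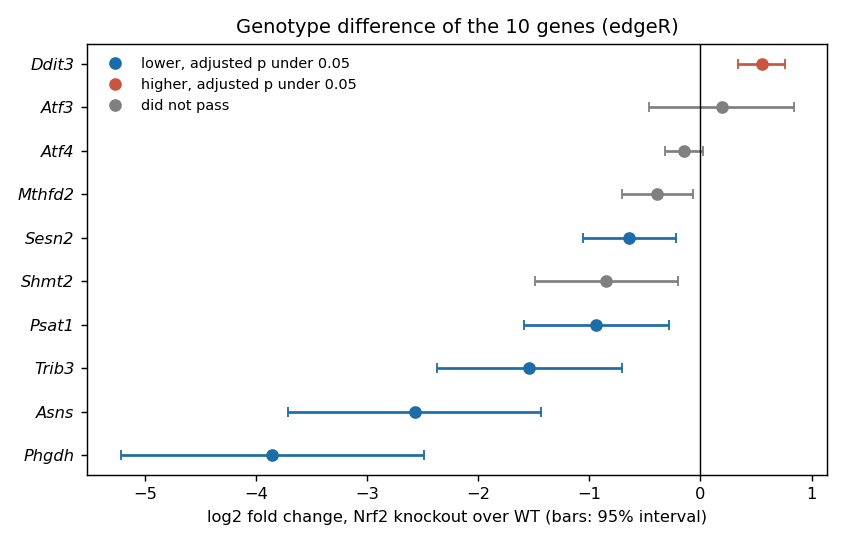
Log2 fold change of the 10 genes, Nrf2 knockout over WT, with 95% intervals from the edgeR fit over 3 libraries of each genotype. Blue points passed as lower, the red point as higher, and grey points did not pass. Phgdh (-3.86) and Asns (-2.57) lie farthest from 0, and the interval of Atf4 is the narrowest.

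Targets of ATF4 in amino acid metabolism and its feedback fell by unequal amounts. Asns (ENSMUSG00000029752; chromosome 6 from 7675169 to 7693254, minus strand) encodes asparagine synthetase, a classical ATF4 target. It stood at 18.4, 56 and 74.8 CPM in WT and 9.57, 8.03 and 7.53 CPM in knockout. Each knockout library was below each WT library, but WT replicate 1 stood closer to the knockout than to WT replicate 3. Asns fell 5.94-fold (log2 fold change -2.57, SE 0.48; edgeR adjusted p = 0.0077). It remained called under 17 of 17 alternatives, from -2.96 to -2.09.

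Trib3 (chromosome 2 from 152337422 to 152344032, minus strand) encodes a pseudokinase that is induced by ATF4 and CHOP and restrains them. Its level was low, at 5.7, 12.6 and 14.5 CPM in WT and 4.37, 3.68 and 3.21 CPM in knockout. The genotypes did not overlap, and the gap between WT replicate 1 and the nearest knockout library was small. Trib3 fell 2.92-fold (log2 fold change -1.54, SE 0.35; edgeR adjusted p = 0.016). The call was lost without WT replicate 2 (adjusted p = 0.058), knockout replicate 2 (0.066) or knockout replicate 3 (0.068).

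Sesn2 (chromosome 4 from 132492032 to 132510501, minus strand) encodes a stress-induced sestrin that senses leucine and holds back mTORC1. It stood at 32.2, 44.3 and 53.9 CPM in WT and 28.7, 28.3 and 26.9 CPM in knockout. Knockout libraries were all lower, by a small margin against WT replicate 1. Sesn2 fell 1.56-fold (log2 fold change -0.64, SE 0.18; edgeR adjusted p = 0.032). It did not pass without WT replicate 2 (adjusted p = 0.097) or without knockout replicate 1, 2 or 3 (0.096, 0.098 and 0.11). Scaled to the macrophage markers the adjusted p was 0.13 at a log2 fold change of -0.65.

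Promoter sequences are shown for 4 genes, because Asns, Trib3 and Atf3 hold the ATF4 motif, while Asns and Trib3 fell and Atf3 did not pass, and because Phgdh fell most. The windows run from 250 bases before to 50 bases after the RefSeq start site (GRCm38.p6, the assembly of mm10), and 10 of the 10 genes had at least 1 window. The Atf3 window belongs to a start site inside the gene's annotated span. Capitals mark matches on either strand to TGATGNAA, a form of the C/EBP-ATF response element, or to TGACNNNGC, the core of the antioxidant response element bound by NRF2.
Asns, chr6:7693160-7693459, minus strand: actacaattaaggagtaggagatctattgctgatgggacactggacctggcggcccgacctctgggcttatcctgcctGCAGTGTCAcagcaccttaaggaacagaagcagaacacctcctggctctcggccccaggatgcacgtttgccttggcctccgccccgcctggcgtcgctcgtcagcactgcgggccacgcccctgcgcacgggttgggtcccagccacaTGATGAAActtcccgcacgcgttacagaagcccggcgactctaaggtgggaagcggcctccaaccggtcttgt
Trib3, chr2:152344011-152344310, minus strand: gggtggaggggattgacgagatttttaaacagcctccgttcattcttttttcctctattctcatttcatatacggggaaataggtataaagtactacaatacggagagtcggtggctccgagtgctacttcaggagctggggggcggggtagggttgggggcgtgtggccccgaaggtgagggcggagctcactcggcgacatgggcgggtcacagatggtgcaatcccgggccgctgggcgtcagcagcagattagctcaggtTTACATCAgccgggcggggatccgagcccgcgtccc
Atf3, chr1:191183284-191183583, minus strand: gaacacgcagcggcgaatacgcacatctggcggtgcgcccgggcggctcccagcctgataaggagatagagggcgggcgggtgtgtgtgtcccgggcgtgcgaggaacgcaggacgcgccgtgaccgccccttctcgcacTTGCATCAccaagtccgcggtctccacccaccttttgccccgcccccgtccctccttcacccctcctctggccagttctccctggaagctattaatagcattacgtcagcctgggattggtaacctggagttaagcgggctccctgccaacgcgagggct
Phgdh, chr3:98339920-98340219, minus strand: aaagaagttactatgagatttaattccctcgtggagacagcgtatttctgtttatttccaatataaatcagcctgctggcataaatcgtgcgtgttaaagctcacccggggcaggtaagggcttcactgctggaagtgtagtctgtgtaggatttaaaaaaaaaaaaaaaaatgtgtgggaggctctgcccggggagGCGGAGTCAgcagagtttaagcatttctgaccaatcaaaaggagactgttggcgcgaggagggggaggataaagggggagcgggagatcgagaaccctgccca
The C/EBP-ATF letters occurred in the windows of Asns (TGATGAAA, 23 bases before the start), Atf3 (TTGCATCA, 110 bases before) and Trib3 (TTACATCA, from base 15 after it), the last pair being on the opposite strand. That is 3 of the 11 windows of these genes (Psat1 has 2), and 3.97% of all 32851 windows hold it. The antioxidant core occurred in Asns (GCAGTGTCA), Phgdh (GCGGAGTCA) and Sesn2 (TGACAGAGC), also 3 of 11 windows, against 12.4% of all windows. No match overlapped a match of the other motif. These are matches of letters, and binding was not measured.

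Serine synthesis starts with Phgdh, phosphoglycerate dehydrogenase, which takes a glycolytic intermediate out of glycolysis. Phgdh (ENSMUSG00000053398; chromosome 3 from 98313170 to 98339990, minus strand) differed most of the 10 genes. It stood at 19.4, 72.7 and 91.5 CPM in WT and 3.47, 5.13 and 4.06 CPM in knockout. The genotypes were far apart, even from WT replicate 1, of which the knockout mean was 21.8%. Phgdh fell 14.5-fold (log2 fold change -3.86, SE 0.58; edgeR adjusted p = 0.0035), and the call held under 17 of 17 alternatives, from -4.27 to -3.05. Transcripts of 19 other annotated genes, 17 of them processed pseudogenes, match Phgdh at 90% identity or more over at least 200 bases. Together they held 4.37% of the counts of Phgdh and these copies, nearly all of it Gm7901, with 15, 60 and 93 counts in WT and 1, 7 and 4 in knockout. Counts of Phgdh with all copies were 369, 1436 and 2186 in WT and 71, 113 and 85 in knockout. Among the reads that were counted, the order of libraries thus does not turn on how they were assigned among these genes. Shared reads that may have been dropped before counting are not covered by this sum.

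Psat1, the aminotransferase of the next step, had a smaller difference. The gene (chromosome 19 from 15904678 to 15947337, minus strand) stood at 61.6, 119 and 143 CPM in WT and 54.8, 57.6 and 56.7 CPM in knockout. WT replicate 1 was just above the knockout libraries, while WT replicates 2 and 3 were clearly higher. Psat1 fell 1.91-fold (log2 fold change -0.94, SE 0.28; edgeR adjusted p = 0.04). This call was the least stable of the 5. It held without WT replicate 1 (-1.21, adjusted p = 1.9e-06) and was lost without WT replicate 2 or 3 (adjusted p = 0.12 and 0.079) and without each knockout library (0.12 each). It was also lost with limma on log2(FPKM + 1) (adjusted p = 0.085) and with scaling to the macrophage markers (0.095).

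Shmt2 and Mthfd2 are the mitochondrial enzymes that take the carbon of serine onto folate and oxidize it. Shmt2 (chromosome 10 from 127517123 to 127522444, minus strand) stood at 52.2, 98.6 and 119 CPM in WT and 53, 50.3 and 46.8 CPM in knockout. Here WT replicate 1 lay within the knockout range, so the genotypes overlapped. Its difference on the log2 scale was -0.85 (SE 0.27; edgeR adjusted p = 0.053; 95% interval -1.49 to -0.20). Mthfd2 (chromosome 6 from 83305691 to 83325908, minus strand) stood at 57.8, 76.5 and 83.5 CPM in WT and 56.8, 55.3 and 54.3 CPM in knockout. All 3 knockout libraries were lower, but the gap to WT replicate 1 was smaller than their own spread. Mthfd2 differed by -0.39 on the log2 scale (SE 0.13; edgeR adjusted p = 0.065; 95% interval -0.71 to -0.07). Without WT replicate 1 both passed, Shmt2 at -1.11 (adjusted p = 6.2e-06) and Mthfd2 at -0.52 (adjusted p = 3.0e-04), and DESeq2 on all libraries also called both (adjusted p = 0.007 and 0.049).

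By deposited FPKM the middle of the order in WT was Shmt2 (29.8 ± 12.7), Psat1 (26.1 ± 11.3), Phgdh (25.6 ± 16.5), Mthfd2 (21.3 ± 5.04) and Asns (18.9 ± 11.6; SD, n = 3), and these neighbours did not differ beyond their spread. Sesn2 (12.8 ± 3.9), Ddit3 (7.6 ± 0.412) and Trib3 (5.32 ± 2.48) followed. In knockout Phgdh was the last of the 10, at 1.67 ± 0.323 FPKM, just behind Trib3 at 1.73 ± 0.264 and Asns at 3.01 ± 0.372. Shmt2 (15.8 ± 0.891) and Mthfd2 (15.6 ± 0.301) were level there, followed by Psat1 (13 ± 0.337), Ddit3 (10.7 ± 0.156) and Sesn2 (7.91 ± 0.206). Phgdh thus went from rank 5 to rank 10 by FPKM, the largest shift in this order.

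For Psat1, Shmt2, Mthfd2 and Sesn2 the WT libraries differed among themselves by more than the genotype means did, for example 2.32-fold against 1.91-fold for Psat1. Highest over lowest WT library was 4.72-fold for Phgdh, 4.06-fold for Asns and 2.55-fold for Trib3, and 1.04-fold for Atf4 and 1.07-fold for Ddit3. Over the 10 genes the median was 2.3-fold in WT and 1.09-fold in knockout. Across all tested genes the medians were 1.31-fold and 1.15-fold. Asns, Trib3, Psat1, Phgdh, Shmt2, Mthfd2 and Sesn2, 7 of the 10, were lowest in WT replicate 1 and highest in WT replicate 3, as 33.2% of all tested genes were. The summed stromal markers had the same order, with WT replicate 1 at 23.4% and WT replicate 2 at 66.8% of WT replicate 3. Against the same library Phgdh stood at 21.2% and 79.4%, Asns at 24.6% and 74.8%, Psat1 at 43.2% and 83.4%, and Mthfd2 at 69.2% and 91.6%. In knockout the stromal sum was 1.2% to 1.39% of WT replicate 3, while Psat1 and Shmt2 stood at 38.4% to 44.6% and Phgdh 3.79% to 5.61%. The part of the stromal transcripts in these differences was not tested. The summed macrophage markers ran the other way in WT, at 136% and 111% of WT replicate 3, and were 108% to 117% of it in knockout.

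**Figure D3:**
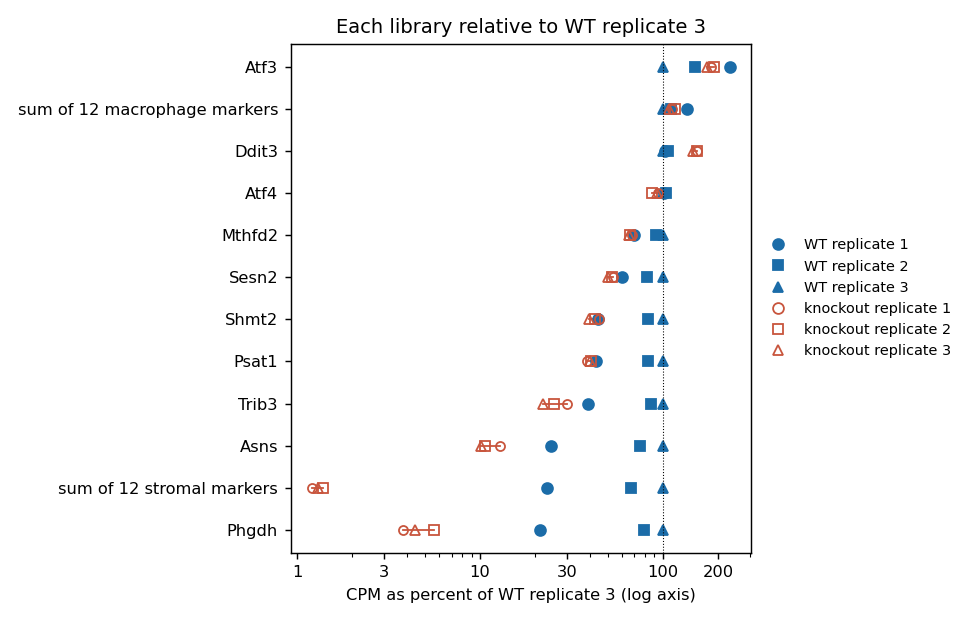
CPM of each of the 10 genes, and of the summed stromal and macrophage markers, as a percent of WT replicate 3 on a log axis. Filled blue symbols are WT libraries and open red symbols knockout libraries. For Psat1, Shmt2, Mthfd2 and Sesn2 WT replicate 1 sits beside the knockout libraries, for Phgdh and Asns it sits between them and the other WT libraries, and for Atf4 and Ddit3 it sits with the other WT libraries.

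Ratios of counts within a library compare members without any scaling between libraries, and 8 were taken. Phgdh over Psat1 was 0.315, 0.611 and 0.642 in WT and 0.0634, 0.0891 and 0.0716 in knockout. The genotypes did not overlap, so Phgdh was lower relative to the next enzyme of its own pathway. Its mean log2 ratio differed by -2.75, with p = 0.1 in a two-sided exact permutation test of 3 against 3 libraries, the smallest this design allows (0.16 with Benjamini-Hochberg adjustment over the 8 ratios). Psat1 over Shmt2 was nearly constant, at 1.18, 1.21 and 1.2 in WT and 1.03, 1.14 and 1.21 in knockout. The ratio of Ddit3 to Atf4 was 0.0572, 0.0573 and 0.0558 in WT and 0.0901, 0.0979 and 0.0885 in knockout. It was thus steady across the 3 WT libraries, unlike the ratio of Asns to Atf4, which was 0.0821, 0.243 and 0.337 in WT and 0.0456, 0.0412 and 0.0366 in knockout. The ratios of Trib3 to Atf4 and of Phgdh to Asns were also lower in each knockout library than in each WT library, by -1.30 and -1.25 on the log2 scale (exact permutation p = 0.1 each, 0.16 adjusted). Mthfd2 over Shmt2 and Sesn2 over Atf4 overlapped between the genotypes (exact permutation p = 0.3 and 0.2).

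Genes around this program were read from 8 lists of 87 other genes. Of these 82 were tested, 31 fell (37.8%, against 18.7% of all tested genes), 9 rose (11%, against 14.1%) and 42 did not pass, with a median log2 fold change of -0.28. In 9 of the tested genes the count filter was reached in WT alone. Of those, Slc1a4, Slc6a9, Slc43a1, Aldh1l2, Pycr1, Chac1, Vldlr and Trib2 are among the 31 lower, and Amt did not pass. These 8 had to be lower to be in that position, so those described below have their levels given without a fold or p. The 37.8% includes these 8. The 18.7% likewise keeps in such genes, as 1012 of all 13184 tested genes reached the filter in WT alone. Without WT replicate 1, 48 fell and 13 rose, and without any other 1 library 20 to 25 fell and 5 to 8 rose. Over all tested genes 3713 fell and 3188 rose without WT replicate 1. Without any other 1 library 1616 to 2134 of all tested genes fell and 875 to 1520 rose.

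**Figure D4:**
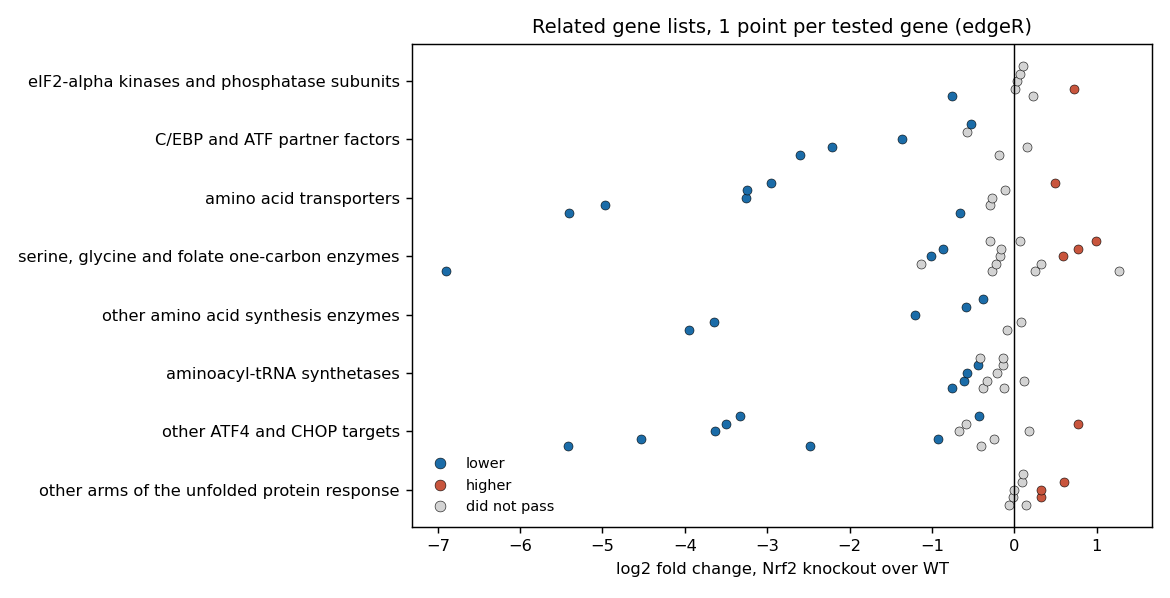
Log2 fold change, Nrf2 knockout over WT, of each tested gene of the 8 related lists, from the edgeR fit over 3 libraries of each genotype. Blue points passed as lower, red points as higher and grey points did not pass. Transporters, partner factors, amino acid synthesis enzymes and other targets of ATF4 and CHOP hold most of the lower genes, and the other arms of the unfolded protein response hold none. Lower points include Slc1a4, Slc6a9, Slc43a1, Aldh1l2, Pycr1, Chac1, Vldlr and Trib2, which reached the count filter in WT alone. The positions of these points follow in part from how they came to be tested.

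Upstream, most genes for eIF2 kinases and phosphatase subunits did not pass (5 of 7, with 1 higher and 1 lower). These are 14.3% each, against 14.1% higher and 18.7% lower among all tested genes. Eif2ak2, the kinase that senses double-stranded RNA, rose 1.65-fold from 22.5 ± 1.58 to 37.1 ± 4.15 CPM (SD, n = 3; edgeR adjusted p = 0.0037). Ppp1r15a, the stress-induced phosphatase subunit GADD34, fell 1.69-fold (adjusted p = 0.0053). Eif2ak1, the heme-sensing kinase, had a log2 fold change of 0.23 (adjusted p = 0.053), which passed without WT replicate 1 (adjusted p = 0.014). Of 7 partner factors 4 fell (57.1%, against 18.7% of all tested genes) and 0 rose (against 14.1%). Atf5, an ATF4-like factor that is translated under the same control, fell 6.05-fold, from 142 ± 46.5 to 23.5 ± 1.96 CPM (adjusted p = 0.0011). Nupr1, a stress-induced nuclear protein, fell 4.62-fold, and Cebpb, a dimer partner of ATF4, fell 1.44-fold. In WT replicates 1, 2 and 3 Atf5 stood at 89.2, 160.5 and 176 CPM and Nupr1 at 9.15, 25.9 and 27 CPM. Both were thus lowest in WT replicate 1, whereas Cebpb, at 161, 152 and 136 CPM, was highest there.

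Of the amino acid transporters 6 of 10 tested were called lower (60%, against 18.7% of all tested genes) and 1 higher (10%, against 14.1%). Of those called lower 3 reached the filter in WT alone. With limma, which left out genes of low FPKM, 3 were lower. The higher call was lost without any 1 library other than WT replicate 1. Slc7a11, the cystine carrier and a target of both NRF2 and ATF4, fell 9.59-fold, from 24.3 ± 4.13 to 2.53 ± 0.521 CPM (SD, n = 3; edgeR adjusted p = 2.8e-04). Its WT libraries stood at 28.6, 20.3 and 24 CPM, so WT replicate 1 was not low for this gene. Slc1a4, a carrier of serine and other neutral amino acids, stood at 7.5, 26 and 34.4 CPM in WT and under 1 CPM in each knockout library. Slc43a1, a carrier of large neutral amino acids, had a low WT level of 2.21 ± 0.674 CPM and a knockout level of 0.23 ± 0.152 CPM.

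Of 16 other enzymes of serine, glycine and folate metabolism 3 were lower (18.8%), 3 higher (18.8%) and 10 did not pass, shares near those over all tested genes. Aldh1l2, the mitochondrial formyl-folate dehydrogenase, stood at 7.45, 32.4 and 44.7 CPM in WT and 0.248, 0.29 and 0.15 CPM in knockout. Aldh1l1, its cytosolic relative, rose 1.71-fold (edgeR adjusted p = 0.007). In the list of other amino acid synthesis enzymes 5 of 7 tested genes were called lower (71.4%, against 18.7% of all tested genes) and 0 higher. Of these, Pycr1 reached the filter in WT alone. Only 2 were lower without WT replicate 2 or without any 1 knockout library, and 2 with limma, which left out genes of low FPKM. Bcat1, the cytosolic branched-chain aminotransferase, fell 15.4-fold. Pycr1, of proline synthesis, stood at 3.23, 10.4 and 12.3 CPM in WT and under 1 CPM in each knockout library, and both genes were lowest in WT replicate 1 among WT. Glul, glutamine synthetase, fell 1.5-fold from 715 ± 113 to 476 ± 9.21 CPM.

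Aminoacyl-tRNA synthetases fell in 4 of 12 cases (33.3%, against 18.7% of all tested genes) and 8 did not pass. This count rested on single libraries, since 11 fell without WT replicate 1 and at most 1 without any other single library. Over all tested genes the lower calls also went up without WT replicate 1, from 2468 to 3713. Nars, Tars and Eprs, for asparagine, threonine, and glutamate with proline, fell 1.52-fold, 1.48-fold and 1.35-fold (edgeR adjusted p = 0.022, 0.039 and 0.039). These 3 calls were lost without WT replicate 2 (adjusted p = 0.083, 0.13 and 0.12) and without each knockout library, and those of Tars and Eprs also without WT replicate 3 (0.078 and 0.062). Among other targets of ATF4 and CHOP 8 of 14 tested genes were called lower (57.1%, against 18.7% of all tested genes) and 1 higher (7.14%, against 14.1%). Of those called lower 3 reached the filter in WT alone. With limma, which left out genes of low FPKM, 3 were lower. Eif4ebp1, a brake on translation initiation, fell 1.91-fold from 93.7 ± 14.6 to 49.1 ± 1.82 CPM (adjusted p = 0.0022). Ddit4, an mTORC1 inhibitor, fell 12.4-fold, from 21.9, 68.8 and 94.3 CPM in WT replicates 1, 2 and 3 to at most 5.76 CPM in knockout. Vldlr, a lipoprotein receptor, stood at 2.36, 8.95 and 10.6 CPM in WT and at most 0.401 CPM in knockout. In the other arms of the unfolded protein response 3 of 9 rose (33.3%, against 14.1% of all tested genes) and 0 fell. Hspa5, the chaperone BiP, rose 1.25-fold, Atf6, a membrane-bound sensor, rose 1.26-fold, and Sdf2l1, a BiP cofactor, rose 1.53-fold. The rise of Hspa5 was lost without WT replicate 2 (adjusted p = 0.12) and without any 1 knockout library (0.071 to 0.11), and that of Atf6 without WT replicate 2 or 3 (0.10 and 0.051) and without any 1 knockout library (0.054 to 0.096).

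Genes with the most similar profiles were found as the smallest root mean square difference in log2 CPM over the 6 libraries, each profile centred on its mean. The genotype difference is part of each profile. The direction and rough size of the differences of these genes thus follow from how they were chosen. For Atf4 they were Atxn7l3, Rps6ka4 and Got2, at root mean square differences of 0.0199 to 0.0218. For Asns they were Pdia5, Sesn3 and Rcn1, at 0.058 to 0.113. Pdia5, a protein disulfide isomerase, stood at 8.27, 24.4 and 34.9 CPM in WT and 4.51, 3.73 and 3.16 CPM in knockout. For Phgdh they were Glipr2, Pkp2 and Cttn, at 0.101 to 0.135.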

How the data were processed

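Messenger RNA of 6 libraries, 3 per genotype, was analysed. Raw read counts per gene and FPKM values were deposited in 1 table, and each FPKM equals the count over the table's exonic length and the column total, within 0.005. Tools listed in the submitters' processing notes, without roles, are HTSeq 0.6.1, HISAT2 2.0.1 and DESeq2, and the build is mm10. Strand use and the treatment of reads with several matches are not given in the sources used here. Libraries of 1 genotype differed beyond sampling noise. Chi-square per degree of freedom, over genes with enough counts, was 33.19 to 161.57 between WT libraries and 3.24 to 8.26 between knockout libraries.

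Counts were fitted whole-table in R 4.3.3 with edgeR 4.0.16 (filterByExpr at a minimum count of 10, TMM factors, genotype as the single term, Benjamini-Hochberg adjustment). SE was computed by dividing the size of the log2 fold change by the root of F, and 95% intervals use the fit's degrees of freedom. The script was tested on simulated data. Alternatives used other scalings and filters, DESeq2 1.42.0, limma 3.58.1 on log2(FPKM + 1) and log2(FPKM + 0.1), a threshold of 0.01, the replicate number as a block, and leaving out each library. Limma took only genes with an FPKM of at least 1 in at least 3 libraries. Similar transcripts were found with blastn 2.17.0 in GENCODE M21. Members, lists and motifs were chosen with earlier results of these data known. Named are Nfe2l2, the 10 members, the 3 tested genes of smallest p in each list, and the 3 nearest profiles of Atf4, Asns and Phgdh, and other genes appear as markers, copies, overlaps, genes that reached the count filter in WT alone, or, chosen after their values were seen, relatives of members. A gene that this rule picks is not reported here.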

Additional observations from a re-analysis of the deposited data

How the results depend on the processing

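The directions of the 9 genes other than Atf3 were the same under all alternatives that tested them, and Atf3, which had no call, was -0.06 without WT replicate 3. The calls of Ddit3, Asns and Phgdh held under all 17 alternatives, while Trib3 lost its call under 4 of 16, Sesn2 under 8 of 17 and Psat1 under 9 of 17. Shmt2 gained a call under 4 alternatives, Mthfd2 under 2 and Atf3 under 1. The number of members that fell, 5, became 3 with limma on log2(FPKM + 1) or log2(FPKM + 0.1), 3 with scaling to the macrophage markers, 2 at an adjusted p under 0.01, and 2 to 7 when 1 library was left out, where the number that rose was 1 to 2. Of all genes 1865 rose and 2468 fell. With scaling to the macrophage markers these were 1688 and 1686. At a mean FPKM of at least 5 these were 982 and 1037, at an adjusted p under 0.01 they were 734 and 1389, and with limma they were 1617 and 1431 (pseudocount 1, where 53.1% of calls were higher, against 43% in the main test) or 1605 and 1463 (pseudocount 0.1). Leaving out 1 library gave 875 to 3188 higher and 1616 to 3713 lower, the highest both without WT replicate 1. Of the 8 lists 9 genes rose and 31 fell. Those lower were 16 and 15 with limma at pseudocounts 1 and 0.1, 22 with scaling to the macrophage markers, and 17 at a mean FPKM of at least 5. At an adjusted p under 0.01 they were 5 higher and 20 lower, and without 1 library 5 to 13 higher and 20 to 48 lower. Smaller counts under the FPKM filter and the stricter threshold follow from fewer tested genes and the threshold itself. Limma also tested fewer genes, 10696 against 13184, since it took only those with an FPKM of at least 1 in at least 3 libraries. For the remaining differences the cause was not tested. Same-numbered libraries of the genotypes correlated at 0.20, 0.14 and 0.08 in their deviations from the genotype means. WT replicates 1 and 2 correlated best with their own numbers, while WT replicate 3 stood at 0.08 with both knockout replicates 2 and 3. The labels do not state pairs, so the numbers were not taken as pairs in the main test. With the replicate block 1 member rose and 5 fell, with 1811 and 2363 of all genes.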

Other observations

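Relatives of Sesn2 and Trib3 did not move alike, and were looked at after their values were seen. Sesn1, a p53-responsive sestrin, rose 1.71-fold, from 75.7 ± 16.4 to 129 ± 2.29 CPM (SD, n = 3; edgeR adjusted p = 0.0091), while Sesn3 fell 5.59-fold (adjusted p = 0.011). The 3 knockout libraries were above all WT libraries for Sesn1 and below them for Sesn3. In WT replicates 1, 2 and 3 Sesn3 stood at 8.54, 29.1 and 39.5 CPM. It is also among the profiles nearest to Asns given above, so its direction and rough size are not separate evidence beside Asns. The fall of Sesn3 had an adjusted p of 0.051 to 0.055 when 1 knockout library was left out. Trib2 stood at 2.3, 4.87 and 5.78 CPM in WT and at most 0.347 CPM in knockout, and reached the count filter in WT alone. Trib1 had a log2 fold change of -0.24 (SE 0.10; adjusted p = 0.1).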
